A study of Mus musculus with 32 samples.

Results

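The effect of a reduced dose of Chd8 was examined late in the formation of the cerebral cortex, at E17.5 (days of embryonic development), when most excitatory neurons of the cortex have been born. The comparison rested on all libraries labelled E17.5: 4 from wild type embryos (WT) and 4 from embryos with 1 altered copy of Chd8 (Chd8 het, written Chd8+/- in the labels), of the 32 libraries of a series that also holds E12.5, E14.5 and E16.0. All embryos were of the C57BL/6J strain, and each group held male embryos M1 and M2 and female embryos F1 and F2. Every WT library had a het partner of the same litter and sex, so that the 8 libraries formed 4 pairs named by those labels, and the tissue of each embryo was processed on its own. The tissue was the dorsal telencephalon, from which the medial part was cut away before cells were dissociated and captured in droplets, and libraries were made with 10x Genomics v2 reagents, which read the 3′ end of transcripts. The labels used here do not say which part of Chd8 is altered, nor in which cells.

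CHD8 is an ATP-dependent chromatin remodeller of the chromodomain helicase DNA-binding family, and loss of one copy is among the best established single-gene causes of autism spectrum disorder. The dorsal telencephalon holds radial glia, the stem cells of the cortex, which give rise to intermediate progenitors and through them to excitatory neurons, while interneurons, microglia and vascular cells enter from elsewhere. Replication-dependent histones are made mainly in S phase from genes without introns, and their messenger RNAs normally end in a stem-loop instead of a poly(A) tail. Linker histones (H1) bind DNA between nucleosomes, and core histones (H2A, H2B, H3 and H4) form the nucleosome itself.

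Barcodes with at least 1000 UMIs (unique molecular identifiers, 1 for each captured RNA molecule) and 500 genes were taken as cells, which gave 28455 cells of 143705 in the series. A library held between 2449 and 4306 cells and between 14188138 and 23925303 UMIs, with a median of 3985 to 5465.5 UMIs and 1868 to 2310 genes per cell. Of the 28 pairs of libraries, none shared more than 30 barcodes, at most 0.817% of the smaller library. The labelled sex matched the data in all 8 libraries: Ddx3y, a Y-linked gene, lay between 42.5 and 45.9 CPM (UMIs per 1000000 UMIs of the library) in males and had no UMI in females. UMIs were summed over all cells of a library, so that fewer cells of a type and less RNA per cell cannot be told apart in these sums. Cells counted below were picked by their marker RNA, so those counts do not fully separate them either.

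No gene passed the test at E17.5. Among 14401 genes tested in matched pairs with edgeR's quasi-likelihood test, 0 had a Benjamini-Hochberg adjusted p under 0.05 (0% called), and the smallest adjusted p was 0.574. At an unadjusted p under 0.05 there were 1213 genes (8.42%), of which 618 (4.29%) were higher and 595 (4.13%) lower in het. DESeq2 on the same design also called 0 genes, with 611 at an unadjusted p under 0.05. In 4 of 4 pairs, 1873 genes (13.0%) were higher and 1155 (8.02%) lower in het, and these shares are the background for the counts given below. All 4 het libraries lay above all 4 WT libraries for 136 genes (0.944%) and below them for 103 (0.715%). The count changed when pair F1 was left out: 19 of 14091 genes (0.135%) then passed, 12 of them higher (0.0852%) and 7 lower (0.0497%) in het. Leaving out M1, M2 or F2 gave 0. With the spread estimated from all 32 libraries, the count was 2 with E17.5 pair F1 and 3 without it. In pair F1, the het library held a state that its WT partner did not share to the same extent, described after the genes below. WT F1 itself also stood apart from every other library on a further component given there. The part of each of these in the count of calls was not tested.

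Chd8, the gene altered in the het embryos, was read as a check of the labels, and its level did not separate the genotypes. It lies on the minus strand at chr14:52198151-52257780 (GRCm38, GENCODE M21) and overlaps Gm26590 on the other strand and Snord8 on its own. In the order M1, M2, F1 and F2, Chd8 stood at 83.8, 54.1, 61.9 and 59.6 CPM in WT (64.9 ± 13.0, SD, n = 4) and at 71.0, 40.7, 71.0 and 51.9 CPM in het (58.7 ± 14.98). It was lower in het in pairs M1, M2 and F2 and higher in pair F1, and the groups overlapped. The fitted log2 fold change was -0.21 ± 0.097 (SE; edgeR quasi-likelihood adjusted p = 0.574) with 4 pairs and -0.31 ± 0.067 without pair F1 (adjusted p = 0.118), and -0.13 without pair M2. The 3′ reads do not say from which copy of Chd8 a molecule came.

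The other members of the family put the F1 value in context. All 9 CHD genes were tested, 0 had an unadjusted p under 0.05, and none was on the same side in 4 of 4 pairs. Their summed level was 1194, 645, 689 and 681 CPM in WT and 1129, 589, 1222 and 657 CPM in het, so that WT M1, het M1 and het F1 were high and the remaining 5 libraries low. In pair F1 all 9 genes were higher in het, with a median log2 ratio of 0.80, against medians of -0.07, -0.08 and -0.03 in M1, M2 and F2. Chd1, a remodeller that binds methylated histone H3, showed this most: 49.7, 22.0, 19.02 and 25.1 CPM in WT and 48.6, 20.1, 59.0 and 27.9 CPM in het. As a share of the summed CHD level, Chd8 made up 7.02%, 8.39%, 8.99% and 8.75% in WT and 6.29%, 6.92%, 5.81% and 7.90% in het, lower in het in 4 of 4 pairs. In pair F1 this lower share went with a higher level of the other CHD genes (627 CPM in WT, 1151 CPM in het) and not with a lower level of Chd8, which stood at 61.9 and 71.0 CPM. This share was formed after the values had been seen and has no test.

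A set of 4 genes for which earlier work on these same libraries had found a het difference over all stages were followed at E17.5, so their direction here is not independent evidence. Crlf2 (chr5:109554709-109558993, minus strand), which encodes a receptor chain for thymic stromal lymphopoietin, stood at 16.9, 22.5, 23.1 and 22.5 CPM in WT (21.3 ± 2.90, n = 4) and at 25.9, 34.2, 32.4 and 34.7 CPM in het (31.8 ± 4.04). Every het library lay above every WT library, and the pairs differed by similar log2 ratios of 0.60, 0.59, 0.48 and 0.61. The fitted log2 fold change was 0.54 ± 0.087 (unadjusted p = 0.000251, edgeR adjusted p = 0.574). With the spread estimated from all 32 libraries, Crlf2 was 1 of 2 genes of 15997 (0.0125%) that passed, the only higher one (0.00625%), at 0.53 ± 0.074 (edgeR adjusted p = 0.00544). In neurons positive for Neurod6, a marker of cortical excitatory neurons, Crlf2 stood at 19.3 to 25.8 CPM in WT and 27.4 to 39.0 CPM in het, without overlap. These neurons held most Crlf2 UMIs of each library (301 of 382 in WT M1, 402 of 624 in het M2), so this largely repeats the comparison of all cells.

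The other gene called from all 32 libraries, the only lower one (0.00625%), was Car14 (chr3:95897768-95904691, minus strand, overlapping Aph1a on the other strand), a membrane-bound carbonic anhydrase. Car14 stood at 3.01, 5.10, 3.99 and 9.25 CPM in WT (5.34 ± 2.74) and at 1.69, 2.58, 1.38 and 3.45 CPM in het (2.27 ± 0.933). It was lower in het in each pair, although het F2 lay above WT M1. The log2 fold change was -1.25 ± 0.185 (unadjusted p = 0.000133, the smallest of all genes) in the fit of E17.5 alone and -1.26 ± 0.138 (edgeR adjusted p = 0.000272) with all 32 libraries. These levels rest on 24 to 146 UMIs per library. In cells positive for the proliferation markers Mki67 and Top2a, Car14 reached 10.0 to 12.8 CPM in WT and 3.87 to 7.89 CPM in het, and in Neurod6-positive neurons 1.34 to 5.32 and 0.316 to 1.84 CPM. The ranges in neurons overlapped. The het values rest on 9 to 17 UMIs per library in the proliferating cells and on 3 to 17 UMIs in neurons.

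Zcwpw1 (chr5:137787798-137822621, plus strand, overlapping Pilra), a reader of histone H3 methylation known from meiosis, stood at 6.78, 7.33, 4.60 and 7.22 CPM in WT (6.48 ± 1.28) and at 11.1, 12.1, 9.91 and 10.2 CPM in het (10.8 ± 0.973). The groups did not overlap, and the log2 fold change of 0.71 ± 0.124 (unadjusted p = 0.000412) did not pass after adjustment (edgeR adjusted p = 0.574; 0.136 with all 32 libraries). In the cells positive for Mki67 and Top2a, Zcwpw1 stood at 16.4 to 26.0 CPM in WT and 31.6 to 37.7 CPM in het, against 2.13 to 3.801 and 4.16 to 5.24 CPM in Neurod6-positive neurons. Gsta4, a glutathione transferase that detoxifies products of lipid peroxidation, stood at 4.34, 4.42, 3.10 and 4.18 CPM in WT (4.01 ± 0.617) and at 2.75, 2.85, 1.797 and 2.08 CPM in het (2.37 ± 0.513). Its groups did not overlap either, with a log2 fold change of -0.81 ± 0.165 (unadjusted p = 0.00115, edgeR adjusted p = 0.574; 0.136 with all 32 libraries). All 4 genes were on 1 side in 4 of 4 pairs, pair F1 included.

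**Figure D1:**
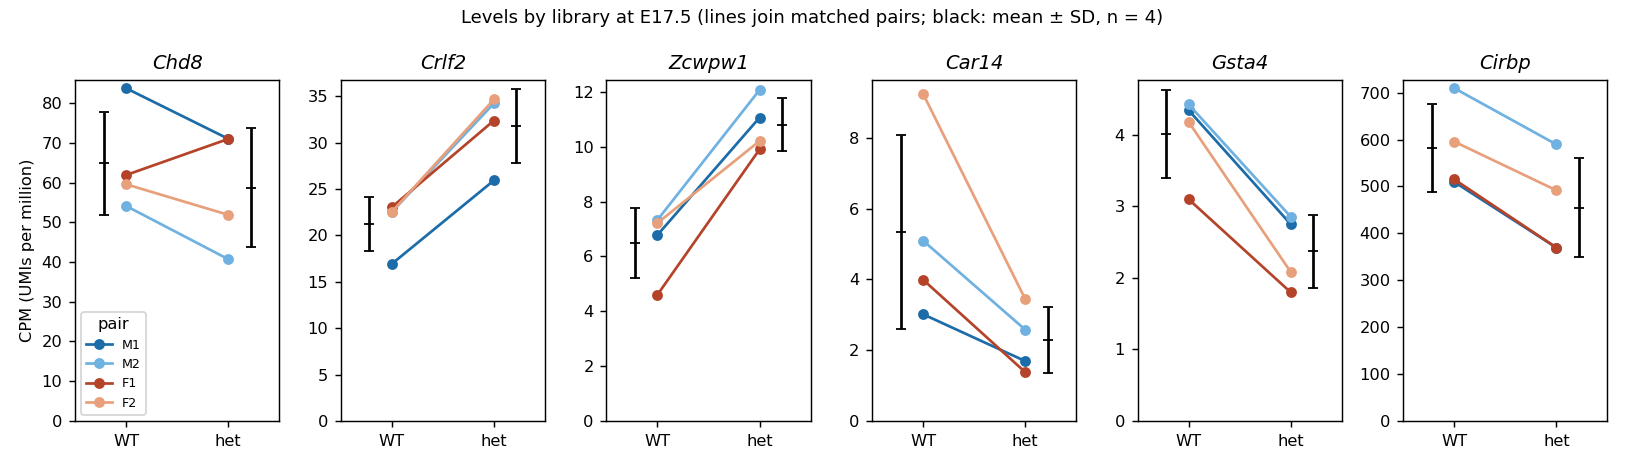
Levels of Chd8, Crlf2, Zcwpw1, Car14, Gsta4 and Cirbp in CPM (y axes, from 0) in WT and het libraries at E17.5. Coloured lines join the 4 matched pairs, and black marks give the mean ± SD (n = 4). Crlf2 and Zcwpw1 were higher and Car14, Gsta4 and Cirbp lower in het in each pair, while the Chd8 line of pair F1 runs against the other 3.

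The libraries WT M1, het M1 and het F1 stood apart from the remaining 5 across the transcriptome. On the first principal component of log2 CPM, which held 66.9% of the variance over 8809 genes with a mean of at least 10 CPM, these libraries scored 25.2, 31.5 and 28.8. WT F1 scored -3.78, and the 4 libraries of pairs M2 and F2 scored -15.2 to -24.1. On the third component, which held 8.67% of the variance, WT F1 scored -20.4 and every other library between -0.863 and 8.39. Pair M1 therefore had both partners on the high side, pairs M2 and F2 both on the low side, and pair F1 1 on each. Since 1 WT and 2 het libraries were on the high side, a comparison that ignores the pairs weighs the state into the genotype difference, and in pair F1 the state and the genotype cannot be told apart. In the sample titles, the libraries of M1 and F1 carry codes that begin with p, those of M2 codes with c17 and those of F2 codes with c16; the meaning of these codes is not stated.

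**Figure D2:**
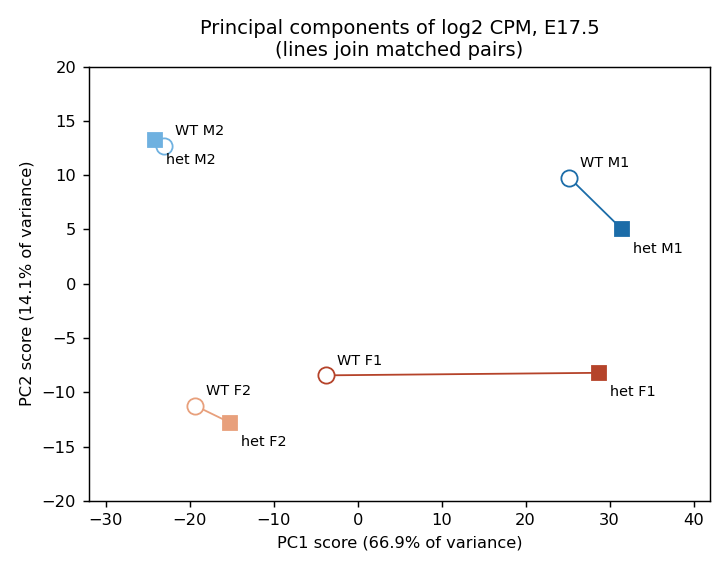
Scores of the 8 libraries on the first and second principal components of log2 CPM (axis labels give the percent of variance), with WT as open circles, het as filled squares and lines joining matched pairs. WT M1, het M1 and het F1 lie at 25.2 to 31.5 on the first component, while WT F1 lies at -3.78, apart from its het partner.

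The state was marked by Hist1h1e, which encodes linker histone H1.4, and by Hist1h2ae, which encodes an H2A. Both lie in the large histone cluster of chromosome 13, Hist1h1e at chr13:23620629-23622558 and Hist1h2ae at chr13:23570517-23571220, both on the minus strand. Their start regions are shown because replication-dependent histone genes are known for compact promoters, and both genes stood high in the same libraries. The sequences are those of RefSeq on GRCm38.p6, from 250 bases before to 50 after the start site, 5′ to 3′ on the minus strand, at chr13:23622509-23622808 and chr13:23571171-23571470. Capitals mark, on either strand, the letters TATAAA, the core of many promoters, CCAAT, to which the factor NF-Y binds, and AAACACA, the core of the H1 box of linker histone genes.
Hist1h1e: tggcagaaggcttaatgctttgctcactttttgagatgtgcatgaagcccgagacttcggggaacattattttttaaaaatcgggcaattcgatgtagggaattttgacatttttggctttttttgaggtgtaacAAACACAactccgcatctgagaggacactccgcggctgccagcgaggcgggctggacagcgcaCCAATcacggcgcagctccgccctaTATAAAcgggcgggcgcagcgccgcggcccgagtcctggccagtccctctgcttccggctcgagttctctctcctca
Hist1h2ae: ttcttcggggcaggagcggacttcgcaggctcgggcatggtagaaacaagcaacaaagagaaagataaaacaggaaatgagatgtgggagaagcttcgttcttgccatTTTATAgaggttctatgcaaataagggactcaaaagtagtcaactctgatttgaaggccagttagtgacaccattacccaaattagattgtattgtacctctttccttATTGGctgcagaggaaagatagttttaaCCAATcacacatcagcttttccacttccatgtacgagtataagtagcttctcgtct

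In Hist1h1e, TATAAA began at position -27 and CCAAT at -52 from the start site, both on the gene's own strand. In Hist1h2ae, CCAAT began at -6 on the gene's strand and at -34 on the opposite strand, and TATAAA at -142 on the opposite strand. AAACACA began at -115 in Hist1h1e, on the gene's own strand, and was not among the letters of the Hist1h2ae window. Of all 32851 windows of this length, 13.6% held TATAAA, 37.4% CCAAT and 7.18% AAACACA on either strand. CCGGAA, a form of the sites bound by ETS factors, was held by 14.9% of windows. It occurred in the Hist1h1e window, at 25 on the opposite strand, and was not among the letters of the Hist1h2ae, Crlf2 or Zcwpw1 windows. Other forms of these sites were not searched for.

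Hist1h1e stood at 110, 11.5, 13.4 and 23.2 CPM in WT (39.4 ± 47.1, n = 4) and at 135, 13.2, 162 and 16.4 CPM in het (81.7 ± 78.1). Hist1h2ae stood at 193, 16.1, 31.7 and 17.1 CPM in WT (64.6 ± 86.2) and at 227, 15.3, 165 and 18.2 CPM in het (106 ± 106). Both genes were high in WT M1, het M1 and het F1 and low elsewhere, and the genotypes overlapped. Their log2 fold changes of 0.79 ± 0.620 and 0.63 ± 0.374 did not pass (edgeR adjusted p = 0.650 and 0.599). Within pairs, the log2 ratios of Hist1h1e were 0.30, 0.19, 3.55 and -0.49, so the difference lay in pair F1, and without that pair the fitted values were 0.03 ± 0.163 for Hist1h1e and 0.09 ± 0.076 for Hist1h2ae. In the 24 libraries of the other stages, Hist1h1e did not exceed 37.5 CPM and Hist1h2ae did not exceed 83.6 CPM.

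Among replication-dependent linker histones other than Hist1h1e, 4 of 4 tested were higher in each of the 3 libraries than in any of the other 5. This held for 14 of 45 core histones tested other than Hist1h2ae (31.1%), a share near the 3910 of all 14401 genes (27.2%) for which it held. It held for 0 of 11 replication-independent histone variants, which include the linker histones H1f0 and H1fx. Hist1h1e and Hist1h2ae are left out of these counts because they define the state, and the counts have no test. Hist1h1b, which encodes H1.5, stood at 67.5, 6.70, 9.39 and 16.3 CPM in WT and at 88.9, 8.23, 85.7 and 14.0 CPM in het, a pattern like that of Hist1h1e. Hist1h1a and Hist1h1d followed it at lower levels, from 1.47 to 12.3 CPM and from 3.84 to 17.9 CPM. Hist1h1c, which encodes H1.2, differed less, at 93.3 to 108 CPM in WT M1, WT F1, het M1 and het F1 and 49.7 to 59.7 CPM in the rest. H1f0, a linker histone of cells that have left the cycle, stood at 362, 703, 428 and 829 CPM in WT and at 277, 656, 353 and 625 CPM in het, lower in the libraries of M1 and F1 than in those of M2 and F2. Histone genes have near-identical copies and some overlap (Hist1h1e with Hist1h2be and Gm11398, Hist1h2ae with Gm44394), so how reads were split among them is uncertain.

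**Figure D3:**
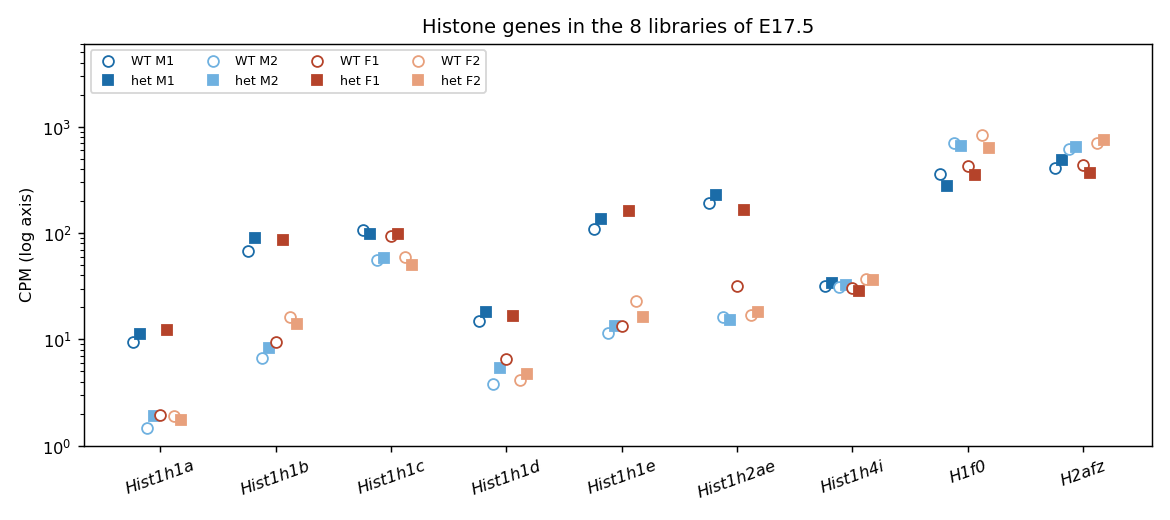
CPM (log axis) of 9 histone genes in the 8 libraries, with WT as open circles, het as filled squares and colours for the pairs. The linker histones Hist1h1a, Hist1h1b, Hist1h1d and Hist1h1e and the core histone Hist1h2ae are high in WT M1, het M1 and het F1, whereas the core histone Hist1h4i lies between 28.3 and 36.7 CPM in all 8.

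Hist1h1e UMIs were more frequent in the 3 libraries in neurons and in cycling cells alike. In Neurod6-positive neurons, Hist1h1e stood at 56.8, 59.5 and 87.9 CPM in WT M1, het M1 and het F1 and at 5.39 to 9.56 CPM in the other 5 libraries. In Mki67- and Top2a-positive cells it stood at 436, 581 and 642 CPM in the same 3 libraries and at 41.3 to 68.1 CPM in the rest. With each cell thinned to 1000 UMIs, 7.71%, 8.69% and 11.1% of all cells of these libraries held a Hist1h1e UMI, against 0.896% to 1.89% in the others (unthinned 26.4%, 28.3% and 36.2% against 5.53% to 7.95%). The share of Mki67- and Top2a-positive cells was 6.69%, 7.02% and 6.43% in the 3 libraries and 4.16% to 7.89% in the rest. The levels of both markers did move with the state: Mki67 stood at 79.0, 70.5 and 66.4 CPM in the 3 libraries and at 26.2 to 46.5 CPM in the others, and Top2a at 168, 164 and 144 CPM and at 70.8 to 124 CPM. Summed S phase genes lay at 792, 872 and 816 CPM in the 3 libraries and at 847 to 1081 CPM in the others, and summed G2 and M phase genes at 1448, 1333 and 1254 CPM and at 1005 to 1612 CPM. Free RNA was not removed, and its part in the UMIs of neurons was not tested, nor was that of the cell cycle.

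Other features of the RNA moved with the state. Malat1, a long noncoding RNA kept in the nucleus, stood at 30635, 14678, 23089 and 14649 CPM in WT and at 35039, 15820, 31595 and 14966 CPM in het, highest in the same 3 libraries. Genes that span over 100 kb took 9.35% to 9.73% of UMIs in those libraries and 6.61% to 7.21% in the other 5. In pair F1 the median log2 ratio was 0.33 for tested genes over 100 kb and -0.08 for those under 10 kb. The part of these features in any difference between genotypes was not tested.

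Among genes whose log2 CPM averaged 4 or more, with an unadjusted p under 0.01 and the same sign in 4 of 4 pairs, the 8 highest and 8 lowest log2 fold changes are given as values, since none passed after adjustment. The highest were Hist1h4d (0.64), BC065397 (0.61), Rgs5 (0.61), Kitl (0.58), 2900009J06Rik (0.57), Crlf2 (0.54), Klf2 (0.48) and Adgrl3 (0.45). Hist1h4d, an H4 gene, stood at 41.4, 24.6, 21.4 and 29.1 CPM in WT and at 61.5, 38.1, 49.4 and 36.7 CPM in het. Kitl, the ligand of the receptor KIT, stood at 27.9, 8.09, 15.6 and 8.36 CPM in WT and at 37.3, 12.8, 30.0 and 11.6 CPM in het. Both were higher in het within every pair, and both stood higher in WT M1, het M1 and het F1 than in any other library, so that the groups overlapped. The same held for Adgrl3, and so for 3 of the 8, against 27.2% of all genes tested. The log2 ratios of Hist1h4d were 0.57, 0.62, 1.19 and 0.33 in M1, M2, F1 and F2. BC065397 was 0.40 without pair M1, and in pairs M2 and F2 only it was 0.36 and Adgrl3 0.24. Kitl was 0.37 with the summed level of all replication-dependent histone genes as a term in place of the pair. BC065397 overlaps Morf4l2, Glra4 and Gm15009, and 2900009J06Rik is antisense to Acmsd. Adgrl3 encodes the adhesion receptor latrophilin-3.

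The lowest were Lgals1 (-0.58), Ifitm2 (-0.51), Egr1 (-0.46), 2610035D17Rik (-0.44), Cldn3 (-0.43), Cirbp (-0.42), Commd10 (-0.40) and Eci1 (-0.39). Cirbp (chr10:80165985-80172786, plus strand), a cold-inducible RNA-binding protein, was the most abundant of them, at 510, 710, 515 and 596 CPM in WT (582 ± 93.4) and 370, 590, 370 and 492 CPM in het (455 ± 107). Lgals1, which encodes galectin-1, stood at 34.8, 55.6, 34.5 and 45.3 CPM in WT (42.6 ± 10.0) and at 27.2, 37.5, 19.1 and 34.9 CPM in het (29.7 ± 8.33). Both were lower in het in each pair, and both passed without pair F1, Cirbp at -0.36 ± 0.059 and Lgals1 at -0.46 ± 0.072 (edgeR adjusted p = 0.0395 and 0.0375). Neither passed with all 32 libraries (edgeR adjusted p = 0.137 and 0.136) or with all 32 but those of E17.5 pair F1 (0.426 for both). Of the 8, 2610035D17Rik and Commd10 stood lower in WT M1, het M1 and het F1 than in any other library, as did 14.7% of all genes tested. Ifitm2 was -0.32 without pair F1. In pairs M2 and F2 only, Ifitm2 was -0.28, 2610035D17Rik -0.16, Cldn3 -0.23 and Commd10 -0.23, and with the histone level as a term Egr1 was -0.76. Eci1 encodes an enzyme of fatty acid oxidation and Cldn3 a tight junction protein.

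Genes of neuronal excitability and autism risk genes were followed as lists, beside a median log2 fold change of 0.01 over all genes tested. Of 56 autism risk genes other than Chd8, 5 were higher and 1 lower at an unadjusted p under 0.05, 8 were higher and 1 lower in 4 of 4 pairs, and the median was 0.14. Grin2b, an NMDA receptor subunit, stood at 141, 42.3, 126 and 42.4 CPM in WT and at 254, 42.3, 183 and 56.9 CPM in het (log2 fold change 0.41 ± 0.125, edgeR adjusted p = 0.574; 0.28 without pair M1). Its levels in pairs M1 and F1 lay above those in M2 and F2 for both genotypes. Deaf1, a transcription factor, was the gene of the list that was lower, at 39.8, 65.7, 55.5 and 57.7 CPM in WT and 35.9, 55.2, 36.5 and 55.9 CPM in het (-0.31 ± 0.111; -0.17 without pair F1). The list's median by pair was 0.08, -0.02, 0.56 and 0.05 in M1, M2, F1 and F2, and without pair F1 the fitted median was 0.02. Its summed level was 7488, 7917 and 7952 CPM in WT M1, het M1 and het F1 and 4621 to 5454 CPM in the other 5 libraries. Of all 37 summed lists, 12 stood higher in WT M1, het M1 and het F1 than in any other library, and 2 lower. Among all genes tested, 27.2% stood higher and 14.7% lower in this way. A shift with the state was therefore not particular to this list or to those below.

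Of 32 postsynaptic receptor and scaffold genes, 4 were higher and 0 lower at an unadjusted p under 0.05, and 4 were higher and 0 lower in 4 of 4 pairs, with a median of 0.18 (0.16 without pair F1). Of 26 voltage-gated channel subunits, 4 were higher and 0 lower, and 7 were higher and 1 lower in 4 of 4 pairs, with a median of 0.16 (0.10 without pair F1). Cacna1e, the pore subunit of R-type calcium channels, stood at 21.8, 3.98, 16.2 and 5.51 CPM in WT and at 37.6, 4.72, 28.6 and 8.52 CPM in het (0.61 ± 0.117, unadjusted p = 0.000789). It was higher in het in each pair, and the libraries of M1 and F1 held several times the level of those of M2 and F2. Gabrb2, a GABA-A receptor subunit, stood at 5.10, 0.939, 1.97 and 1.46 CPM in WT and at 10.1, 0.659, 6.23 and 1.37 CPM in het, higher in het in pairs M1 and F1 only. The medians of both lists were below 0 in pair M2 (-0.08 and -0.02), and fitted to pairs M2 and F2 only they were 0.01 and 0.02. Both lists moved with the libraries that stood apart: their summed levels were 2255, 2568 and 2368 CPM (postsynaptic) and 704, 860 and 746 CPM (channels) in WT M1, het M1 and het F1, against 1154 to 1596 and 342 to 517 CPM in the others. With the summed histone level as a term in place of the pair, the medians were 0.08 and 0.05, against 0.20 and 0.18 with neither, and that of the autism risk genes was 0.06 against 0.14. That sum includes Hist1h1e and Hist1h2ae, which define the state. It also includes Hist3h2ba, a core histone gene at 514 to 831 CPM that did not stand higher in the 3 libraries. The part of the state in these medians was therefore not tested. Of 32 axon guidance genes 3 were higher and 0 lower, and 4 were higher and 0 lower in 4 of 4 pairs, with a median of 0.06, which was 0.00 without pair F1 and -0.03 in M2 and F2. Their median was 0.41 in pair F1, and their summed level was 2685, 2370 and 2669 CPM in the 3 libraries against 1747 to 1950 CPM in the others. Of 26 synaptic vesicle and active zone genes 1 was higher and 1 lower, with a median of 0.00. Of 28 Wnt and beta-catenin genes, 2 were higher and 1 lower, and 4 were higher and 3 lower in 4 of 4 pairs, with a median of 0.15 that was 0.03 without pair F1 and -0.01 in M2 and F2. Their median was 0.33 in pair F1, and their summed level was 1431 to 1506 CPM in the 3 libraries and 1161 to 1393 CPM in the others. Lef1, a transcription factor of this pathway, stood at 3.28, 2.32, 2.39 and 3.17 CPM in WT and at 3.67, 5.43, 5.02 and 4.49 CPM in het, without overlap (0.70 ± 0.208, unadjusted p = 0.00957).

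**Figure D4:**
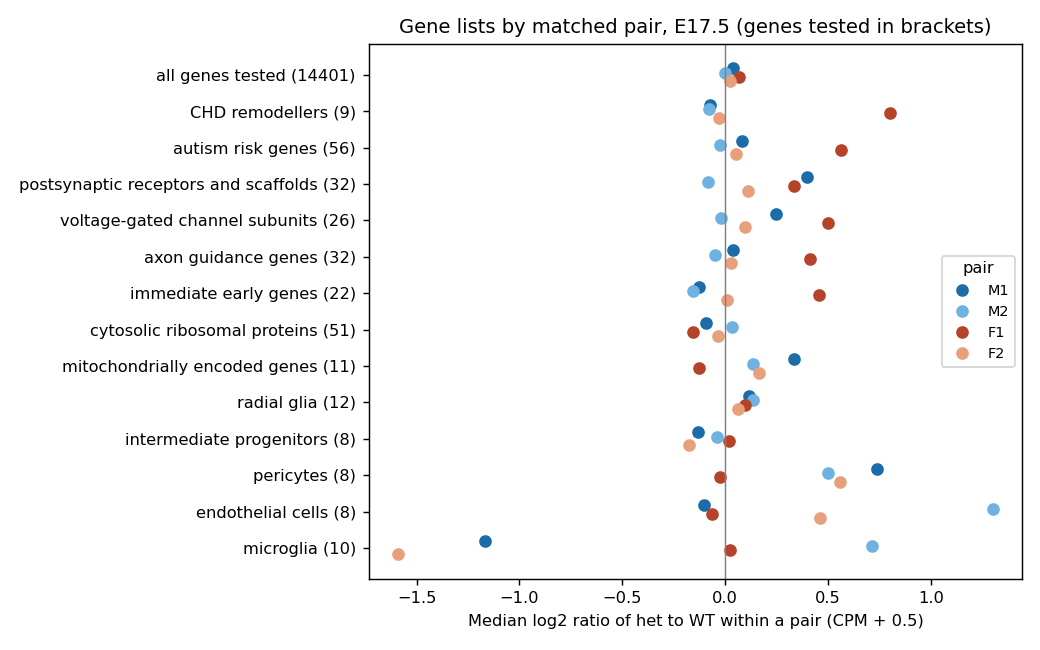
Median log2 ratio of het to WT (x axis, from CPM + 0.5) of 13 gene lists and of all genes tested, with 1 point per matched pair and the number of genes tested in brackets. The point of pair F1 stands apart for CHD remodellers (0.80) and autism risk genes (0.56), pericyte markers lie above 0 in the other 3 pairs, and microglial markers differ in sign between pairs.

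Cytosolic ribosomal proteins and chaperones were followed as abundant genes of every cell. Of 51 ribosomal protein genes tested, 0 were higher and 5 lower at an unadjusted p under 0.05, 0 were higher and 10 lower in 4 of 4 pairs, and the median was -0.12, against -0.04 without pair F1. In pair F1 0 of 51 were higher in het, and in pair M2 40 of 51 were. The list moved with the state: its summed level was 115272, 107904 and 107084 CPM in WT M1, het M1 and het F1 and 125255 to 133827 CPM in the other 5 libraries, and its median in M2 and F2 was -0.0030. Rpl4, a large subunit protein, stood at 1812, 2106, 1877 and 2169 CPM in WT and at 1446, 1996, 1624 and 1920.4 CPM in het. Hspa8, a constitutive chaperone, stood at 1892, 1982, 2164 and 1783 CPM in WT and at 1685, 1759.6, 1859.8 and 1468 CPM in het (-0.25 ± 0.071), and the heat shock list held 0 higher and 1 lower of 18.

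Of 22 immediate early genes, which respond within minutes to activity and to handling of cells, 2 were higher and 4 lower at an unadjusted p under 0.05, and the median was 0.06 with pair F1 and -0.17 without it. Their summed level was 1921, 1722 and 1973 CPM in WT M1, het M1 and het F1 and 1061 to 1507 CPM in the others. Egr1, a transcription factor of this group, stood at 92.9, 20.6, 64.1 and 23.0 CPM in WT and at 63.5, 12.2, 60.2 and 18.99 CPM in het (-0.46 ± 0.109). It was lower in het in each pair, and in both genotypes the libraries of M1 and F1 lay above those of M2 and F2. Klf2, which is also abundant in endothelium, stood at 15.7, 14.6, 17.1 and 17.9 CPM in WT and at 20.7, 28.2, 23.9 and 21.3 CPM in het, without overlap (0.48 ± 0.128).

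Among markers of the cortical lineage, no gene passed. The summed levels of upper-layer and deep-layer neuron markers moved with the state, and are among the 12 of 37 lists that did so upwards. Of 12 radial glia markers, 1 was higher and 0 lower at an unadjusted p under 0.05, 8 were higher in 4 of 4 pairs, and the median was 0.11. Of 8 intermediate progenitor markers, 0 were higher and 2 lower, 4 were lower in 4 of 4 pairs, and the median was -0.14. Sstr2, a somatostatin receptor used as a marker of these progenitors, stood at 115, 173, 122 and 179 CPM in WT and at 81.3, 162, 101 and 151 CPM in het (-0.32 ± 0.086). Of 10 deep-layer neuron, 12 interneuron and 8 Cajal-Retzius markers, 0 had an unadjusted p under 0.05 in either direction. Cajal-Retzius markers had medians of 1.07, 0.05, -0.85 and -0.02 in M1, M2, F1 and F2, and deep-layer markers 0.34, -0.11, 0.57 and -0.0037. Of 10 upper-layer markers 1 was higher and 0 lower, with a median of 0.11 that was 0.01 without pair F1. The summed upper-layer level was 2502, 2855 and 2780 CPM in WT M1, het M1 and het F1 and 1448 to 1992 CPM in the others, and the deep-layer level 563, 749.99 and 614 CPM against 329 to 471 CPM. Of 7 astrocyte lineage markers tested, 1 was higher and 0 lower, with a median of 0.30. The defining markers of excitatory neurons were present: Neurod6-positive cells made up 61.2% to 77.2% of every library. Choroid plexus markers summed to 2.7 to 5.0 CPM, and 1 of 8 of them was tested.

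Pericyte markers had medians above 0 in 3 of 4 pairs and endothelial markers in 2 of 4, without a gene that passed. Of 8 pericyte markers, 4 were higher and 0 lower at an unadjusted p under 0.05, 4 were higher in 4 of 4 pairs, and the median was 0.37 (0.63 without pair F1). Rgs5, a regulator of G protein signalling that marks pericytes, stood at 36.7, 49.8, 39.2 and 44.9 CPM in WT (42.7 ± 5.88) and at 83.6, 68.5, 50.2 and 68.3 CPM in het (67.7 ± 13.7). Every het library lay above every WT library (0.61 ± 0.138, unadjusted p = 0.00223, edgeR adjusted p = 0.574). Abcc9, a subunit of the potassium channel of pericytes, stood at 5.36, 7.42, 6.01 and 7.54 CPM in WT and at 9.73, 10.98, 7.31 and 11.4 CPM in het (0.53 ± 0.134). The summed pericyte level was 91.9, 128, 125 and 116 CPM in WT (115 ± 16.5) and 178, 183, 127 and 170 CPM in het (164 ± 25.5). Pair F1 differed least, with 4 of 8 markers higher in het, whereas all 8 were higher in M1, M2 and F2.

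Endothelial markers varied more between pairs. Of 8, 1 was higher and 0 lower at an unadjusted p under 0.05, the median was 0.45, and the medians by pair were -0.10, 1.30, -0.06 and 0.46. Igfbp7, a secreted protein abundant in endothelium, stood at 47.6, 52.5, 57.2 and 46.6 CPM in WT and at 48.4, 111, 55.0 and 94.5 CPM in het, high in het M2 and het F2 alone. Flt1, a VEGF receptor, stood at 12.3, 9.70, 10.8 and 14.2 CPM in WT and at 12.1, 23.9, 14.96 and 19.4 CPM in het (0.51 ± 0.194; 0.25 without pair M2).

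Cells were also counted, by the same markers that were summed above, so these counts are not separate evidence. A cell with more marker RNA reaches 3 markers more easily, so the counts do not fully part cell number from RNA per cell. Cells with at least 3 pericyte markers made up 0.418%, 0.849%, 0.549% and 0.709% of WT libraries and 0.735%, 0.964%, 0.757% and 1.14% of het libraries, higher in het in 4 of 4 pairs. Cells with at least 3 endothelial markers made up 0.534%, 0.657%, 0.340% and 0.678% of WT and 0.531%, 1.20%, 0.922% and 0.991% of het libraries, higher in 3 of 4 pairs. These shares rest on 13 to 41 cells per library, and their 95% Wilson intervals overlap within each pair except for the endothelial share of pair F1. Those intervals cover counting error only. In pair F1 the summed endothelial markers went the other way, at 185 CPM in WT and 176 CPM in het. With 4 against 4 libraries and such counts, the shares are given without a test.

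**Figure D5:**
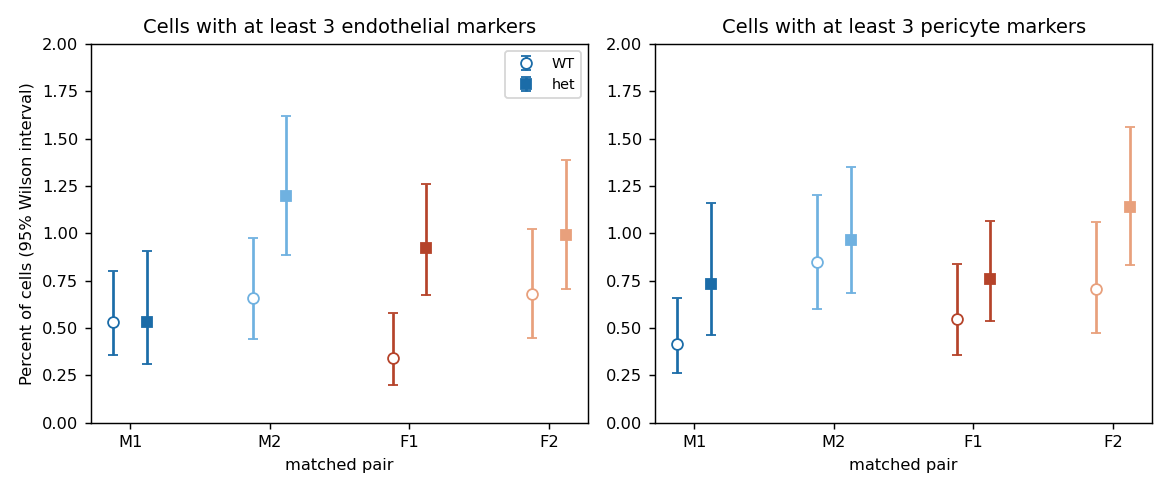
Percent of cells with at least 3 endothelial (left) or pericyte (right) markers in each matched pair (x axis), with WT as open circles, het as filled squares and bars for 95% Wilson intervals, which cover counting error only. The het share of pericyte-marker cells is higher in each pair, and the endothelial share of pair M1 is nearly equal, at 0.534% and 0.531%.

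The 19 genes that passed without pair F1 are listed here, and no grouping of them was tested. In the fit of all 32 libraries but those of E17.5 pair F1, only 3 of 16160 genes passed: Crlf2, Car14 and 2900009J06Rik. None of the 19 was on the list of endothelial markers. Of the 12 that were higher, Vtn, Kcnj8 and Higd1b are pericyte markers, Gja4 encodes a gap junction protein of arterial endothelium and Col4a1 a collagen of basement membranes. Kcnj8, a potassium channel subunit, stood at 8.24, 11.8, 12.9 and 8.36 CPM in WT and at 13.7, 18.1, 11.3 and 14.504 CPM in het. The others were Crlf2, Tagln2, Slc9a3r2, Hist1h4d, Dlk1, 2900009J06Rik and Taco1os, of which Taco1os is antisense to Taco1. The 7 that were lower were Car14, Cirbp, Lgals1, Egr1, Ccl4, Pf4 and Ppbp. In pair F1, which that fit left out, 10 of the 19 had the same sign and 8 the opposite sign, and Ppbp had no UMI in either library.

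Among these, Crlf2 rose by a log2 fold change of 0.59 ± 0.077 (edgeR adjusted p = 0.0183) and Car14 fell by 1.14 ± 0.190 (adjusted p = 0.0422), and both had the same sign in pair F1. Vtn, the gene of vitronectin, stood at 14.4, 10.9, 31.1 and 8.99 CPM in WT and at 24.4, 18.8, 23.7 and 12.7 CPM in het, opposite in F1. Tagln2, an actin-binding protein, stood at 18.0, 36.8, 36.8 and 36.7 CPM in WT and at 24.2, 59.4, 23.4 and 52.8 CPM in het, also opposite in F1. Ccl4, a chemokine made by microglia, stood at 22.4, 6.93, 11.6 and 7.09 CPM in WT and at 2.54, 1.98, 12.5 and 0.585 CPM in het, low in het M1, M2 and F2 but not in het F1. Pf4, a platelet gene, stood at 1.24, 2.68, 0.0470 and 2.28 CPM in WT and at 0.0705, 0.0549, 0.0836 and 0.260 CPM in het. Its level in WT F1 was as low as in het, and Ppbp, a further platelet gene, had no UMI in WT F1 or in any het library. Pf4 had 28, 60, 1 and 36 UMIs in WT and 1 to 4 in het libraries, and Ppbp 15, 34, 0 and 10 UMIs in WT, so no fold is given against such low counts.

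When both pairs with a library in the high state were left out, 62 of 14106 genes passed in M2 and F2 (0.440%; edgeR, a choice made after the data were seen), 51 higher (0.362%) and 11 lower (0.078%) in het. They included 3 of 8 endothelial and 3 of 8 pericyte markers, the radial glia marker Tnc and the astrocyte lineage marker Sparcl1. Of the 51 higher genes, 25 had the same sign in pair M1, 21 in pair F1 and 10 in both. Among all 14401 genes tested, 8137 were higher in het in M1 and 8156 in F1, larger shares than among the 51. Of the 11 lower genes, 8 had the same sign in M1, 6 in F1 and 4 in both. Of the 19 genes called without pair F1, 13 were among the 62, a share of 68.4% of the 19 and 21.0% of the 62. Both sets share pairs M2 and F2. A fit of these pairs alone leaves little spread of its own, so its p-values rest largely on the spread of other genes.

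Markers of other cells in the tissue differed in sign between pairs. Of 10 microglial markers, 0 were higher and 1 lower at an unadjusted p under 0.05, with pair medians of -1.17, 0.71, 0.02 and -1.59. Tmem119, which marks mature microglia, stood at 2.79, 1.39, 1.22 and 4.81 CPM in WT and at 0.987, 1.21, 0.502 and 1.17 CPM in het (-1.31 ± 0.317, unadjusted p = 0.00314). C1qb, a complement gene of microglia, stood at 17.2, 14.3, 8.26 and 46.4 CPM in WT and at 5.64, 21.7, 6.94 and 11.8 CPM in het. Cells with at least 3 microglial markers numbered 6 to 21 per library. Summed globin levels were 2359, 8891, 3779 and 14525 CPM in WT and 18083, 8359, 6389 and 13339.7 CPM in het, so that the blood content differed most in pair M1, and its part in the results was not tested.

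Whether the change at E17.5 differed from the mean change at E12.5, E14.5 and E16.0 was tested in all 32 libraries. Of 15997 genes, 0 passed (0% called), the smallest edgeR adjusted p was 0.110, and 2658 (16.6%) had an unadjusted p under 0.05. Car14 had the smallest p, with a log2 fold change at E17.5 lower by 0.86 ± 0.148 than the mean of -0.40 at the other stages (unadjusted p = 1.3e-05, adjusted p = 0.110). Its level was lower late: a median of 36.8 CPM at E12.5, 18.4 at E14.5, 9.68 at E16.0 and 3.23 CPM at E17.5 over the 8 libraries of each stage. Fbn2, an extracellular fibrillin, was next, at -0.26 over the other stages and 0.56 at E17.5 (adjusted p = 0.110). For Crlf2 the values were 0.74 and 0.53, for Zcwpw1 0.76 and 0.71, for Gsta4 -0.45 and -0.80, and for Chd8 -0.31 and -0.21, with differences that did not pass (edgeR adjusted p = 0.259, 0.897, 0.328 and 0.645). DESeq2 on the same contrast called 234 of the 15997 genes, 11 higher and 223 lower at E17.5. None of them passed in the edgeR fit of the same counts, where their smallest adjusted p was 0.110. Of the 234, 227 had the same sign in pair F1, in which the state and the genotype cannot be told apart. Pair F1 entered that fit, so the shared sign is partly given in advance and is not separate evidence. The median log2 ratios of the 234 genes were -0.19, -0.08, -0.18 and -0.09 in M1, M2, F1 and F2.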

How the data were processed

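Single-cell RNA libraries of 8 E17.5 embryos were compared, with 24 libraries of other stages for the stage contrast. The authors deposited raw UMI counts per gene and barcode, and the submitters' processing notes name Cell Ranger, STAR 2.7.9a, STARsolo and build mm10, without their order. Whether counting used strand is not given in the sources used here. Counts of barcodes with at least 1000 UMIs and 500 genes were summed per library, without removal of doublets or free RNA. The sums were fitted with edgeR 4.0.16 (TMM scaling, filterByExpr, robust quasi-likelihood test, Benjamini-Hochberg adjustment over all genes tested, threshold 0.05), with the matched pair as a block, as the series' design text states litter- and sex-matched pairs. Deviations of pair partners from their group means correlated at 0.831, 0.871, 0.195 and 0.815 in M1, M2, F1 and F2, and those of libraries that are not partners at -0.828 to 0.702, highest for WT M1 with het F1. CPM is a gene's UMIs per 1000000 kept UMIs, and log2 ratios within pairs used CPM + 0.5. DESeq2 1.42.0 was an alternative. The model was tested on simulated data that held no differences between pairs and no library state, so that test does not cover them. Gene positions and overlaps come from GENCODE M21 (GRCm38), and start regions of 4 of 4 genes from RefSeq. Named genes were the 8 highest and 8 lowest (above), the 4 genes of earlier work with Chd8, Hist1h1e and Hist1h2ae, up to 2 genes at each end of a list, genes called without pair F1, and those with the smallest p in the stage contrast. The members and lists were chosen with earlier results of these data known, so no list has a test of its own. P-values of the paired fit measure the spread of the het to WT difference between the 4 pairs, with each gene's spread drawn towards that of other genes. Those of the fit of all 32 libraries also use the spread between pairs of the other stages, which may differ from that at E17.5.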

Additional observations from a re-analysis of the deposited data

Results flagged for a closer look

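In 188 groups of 4 libraries examined (single genes and summed lists), 13 held a library far from the other 3 by Dixon's criterion at the 95% level, where chance gives about 1 in 20 groups. Hist1h1e and Hist1h2ae define the state by their high levels and are given as a description only; without their 4 groups, 11 of 184 held such a library. In WT, library M1 was the distant one for Hist1h1e (110 CPM, others 11.5 to 23.2), Hist1h2ae (193 CPM), Hist1h1b (67.5 CPM), Hist1h1a (9.49 CPM), the summed CHD remodellers (1194 CPM, others 645 to 689) and the summed axon guidance genes (2685 CPM, others 1815 to 1908). It was also the lowest WT library for Crlf2 (16.9 CPM, others 22.5 to 23.1) and Tagln2 (18.0 CPM, others 36.7 to 36.8).

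In het, library M1 stood apart for summed Cajal-Retzius markers (159 CPM, others 70.0 to 85.1). Library M2 did so for summed astrocyte lineage markers (256 CPM, others 141 to 153) and Gja4 (7.74 CPM). Library F1 did so for Ccl4 (12.5 CPM, others 0.585 to 2.54), and F2 for Pf4 (0.260 CPM, 4 UMIs).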

How the results depend on the processing

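The count of 0 genes called at E17.5 was also 0 with no replicate block (the pair left out of the model; 212 genes at an unadjusted p under 0.05), with DESeq2, without a filter on low counts, with RLE scaling, with all barcodes, with at most 10% mitochondrial UMIs, and with the histone level as a term in place of the pair. It was 2 with all 32 libraries, 62 with pairs M2 and F2 only and 3 with all 32 libraries but those of E17.5 pair F1, both last settings chosen after seeing the data, and 0 to 19 with 1 pair left out, the 19 without F1. The stage difference gave 0 genes with no replicate block, with RLE scaling and with any E17.5 pair left out, 2 without a filter on low counts and 234 with DESeq2.

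Of 770 values for 55 genes named under 14 alternatives, 8 changed sign. Hist1h1e went to -0.18 with M2 and F2 only and to -0.0028 with all 32 libraries but pair F1. With M2 and F2 only, Hist1h2ae was -0.0075, Hist1h1b -0.0073, Chd1 -0.0037 and Gabrb2 -0.29. Chd1 lay between -0.0305 and 0.5241 with 1 pair left out, lowest without F1, and was -0.0363 with all 32 libraries but pair F1. The cause was not tested. Depth limits Pf4 and Ppbp, which had at most 4 UMIs in any het library.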
